A study of Mus musculus with 12 samples.

Results

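Mouse embryonic stem cells in which deletion of the histone deacetylase genes Hdac1 and Hdac2 was induced were compared with the same line at the start of the course, on the 3 arrays of day 3 and the 3 arrays of day 0. These 6 arrays are all arrays titled with those days, out of 12 in the series, the other 6 being 3 each of days 1 and 2. The cells are E14 embryonic stem cells, in which Hdac1 and Hdac2 carry loxP sites on both alleles and which express CreER, a Cre recombinase that becomes active when 4-hydroxytamoxifen (OHT) is bound. All groups share this genotype, growth on gelatin without feeder cells and medium with serum and LIF, and the protocol names an exposure of 16 hours to OHT to delete both genes. Day 0 is titled with OHT too, whereas the design text calls it wild type, and no source used here settles if OHT had been given by then. No cells that met OHT without the loxP sites are among the samples, so loss of the deacetylases, OHT, active Cre and days in culture cannot be told apart. The promoter that drives CreER and the number of clones behind the line are not given in the labels, and nothing in them says that replicates came from separate cultures. The p-values therefore measure only the spread between these samples.

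HDAC1 and HDAC2 are the catalytic subunits of the Sin3, NuRD, CoREST and MiDAC corepressor complexes. DNA-bound repressors bring these complexes to promoters and enhancers, where they remove acetyl groups from the tails of histones, and they also act within transcribed genes. The 2 enzymes are close paralogues and can replace each other in part, which is why conditional deletion of both is used to study them. In embryonic stem cells they are known to be needed for viability and for full expression of the pluripotency network, and the complexes are also known to keep neuronal, germline and other lineage genes silent.

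Each array gives an intensity for 45281 probes, and 14509 to 16492 of them were detected on each of the 6 arrays, at a detection p under 0.01. Before normalization the upper quartile of the intensity was lowest on day 3 replicate 2 (272.2) and highest on day 3 replicate 3 (371.2). After normalization, arrays of the same day correlated across genes at 0.9796 to 0.9901, and arrays of day 0 with those of day 3 at 0.9453 to 0.9651. The median raw intensity placed the 12 arrays in 2 sets of 6, a brighter one from 198.8 to 209.3 and a dimmer one from 183.8 to 189.6. Day 0 replicate 3 and day 3 replicates 2 and 3 belong to the brighter set, and the other 3 arrays of these days to the dimmer one. The names refer to the median alone, since day 3 replicate 2 had the lowest upper quartile. With the set as a block 2259 genes rose and 1888 fell by limma. Within each set, 1 array of one day against 2 of the other, all 3889 genes called below differed in the same direction, a count that their choice on these same arrays largely fixes.

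Embryonic stem cell identity was checked first on 8 defining markers, and all 8 were detected on all 6 arrays. Their summed linear level was 135074 to 139101 at day 0 and 111383 to 115144 at day 3. Dppa5a, the brightest of them, weighs most in this sum, with a mean log2 level of 16.05 at day 0 and 16.06 at day 3. Pou5f1, Sox2, Nanog, Zfp42 and Esrrb were lower at day 3 by limma, while Utf1, Tdgf1 and Dppa5a did not pass the test. None of 4 neuroectoderm markers was detected on any of the 6 arrays. Of 6 fibroblast markers, all but Thy1 were undetected on these arrays, and their sum went from 1233 to 1469 at day 0 to 3170 to 4880 at day 3 with Thy1, a surface glycoprotein, as the one detected. Of 6 trophectoderm markers, 1 was detected at day 0 and 2 at day 3, with a sum of 353 to 370 at day 0 and 398 to 430 at day 3. Of 7 markers of primitive and visceral endoderm, 3 were detected on some array at day 0 and 2 at day 3, and the sum was 518 to 565 and then 591 to 661. The labelled cell type thus had its defining markers on every array. In such bulk samples, fewer cells of a type and less RNA per cell cannot be told apart.

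No probe is named Hdac1, so its deletion could not be read here. Hdac2 has a bright and a dim probe, and whether either lies in the deleted part is not given in the sources used here. The bright Hdac2 probe read 13.70, 13.40 and 13.65 at day 0 and 13.24, 13.12 and 13.60 at day 3, with overlapping days and a change of -0.26 ± 0.14 (limma adjusted p of 0.149). The call was made, with limma's adjusted p, in 3 alternatives: -0.41 when array 3 of day 3 was omitted (0.0245), -0.46 when arrays were scaled to their 75th percentile (0.00841), and -0.61 for the mean of both probes (0.00298). Here and below, levels are normalized log2 intensities in the order of replicates 1 to 3, and a change is day 3 minus day 0 in log2 units with the standard error of the limma fit. The dim Hdac2 probe read 6.57, 6.36 and 6.47 at day 0 and 5.62, 5.53 and 5.34 at day 3, and it was detected on 3 of 3 arrays and then on 0 of 3. In a fit of all detected probes it changed by -0.97 (limma adjusted p of 0.00403), with no overlap of the days.

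The comparison asks which transcripts differ between day 3 and day 0 of the course. Of 9934 genes tested, 3889 differed at a Benjamini-Hochberg adjusted p under 0.05 by limma (39.1%). These were 2121 genes higher at day 3 (21.4%) and 1768 genes lower (17.8%), which are the background for every count below. A change of at least 2-fold was found for 684 of the rises and 285 of the falls, and one of at least 4-fold for 75 and 11. The median change over all genes was 0.005, and the 3 values of each day were apart for 45.3% of genes. The balance depended on the scaling, since 1839 rose and 2165 fell when arrays were scaled to their 75th percentile instead. With no scaling between arrays the counts were 723 and 516.

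**Figure D1:**
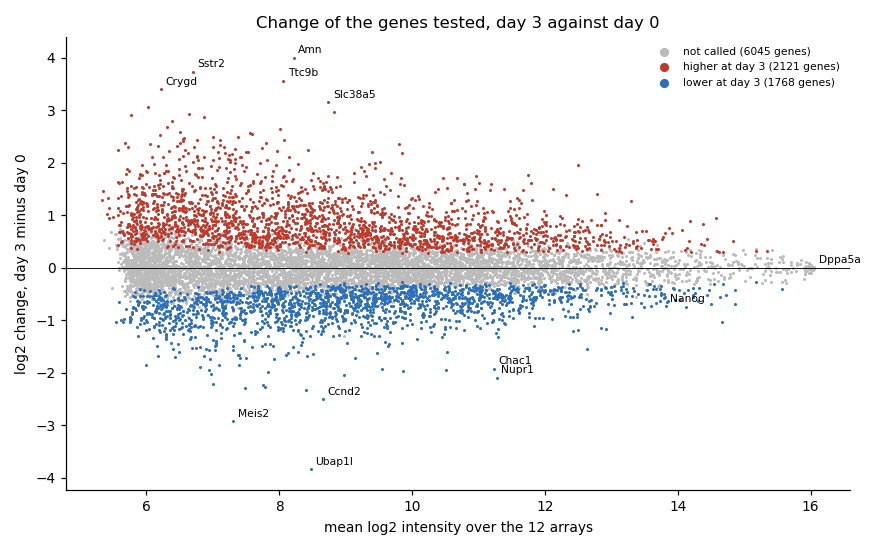
Each point is 1 of the 9934 genes tested, with its mean log2 intensity over the 12 arrays on the x axis and its log2 change from day 0 to day 3 on the y axis. The 2121 genes higher at day 3 and the 1768 lower ones lie at all levels, and rises reach further from 0 among dim genes than among bright ones.

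Genes with clone names are left out of the rankings of rises, falls and lower bounds that follow. The largest rise among genes detected on every array of both days was that of Amn, which encodes amnionless, the membrane partner of cubilin in the receptor that takes up vitamin B12 with intrinsic factor. Amn read 6.49, 6.76 and 6.76 at day 0 and 10.78, 10.81 and 10.42 at day 3, so the lowest day 3 array lay far above the highest day 0 array. The change was 4.00 ± 0.16, or 16-fold (limma adjusted p of 8.97e-09). Ttc9b, a tetratricopeptide repeat gene, read 6.30, 6.34 and 6.70 at day 0 and 9.99, 10.26 and 9.78 at day 3, a change of 3.56 ± 0.18. Slc38a5, a sodium-coupled transporter of glutamine and other neutral amino acids, read 7.51, 7.43 and 7.52 at day 0 and 10.68, 10.49 and 10.73 at day 3, a change of 3.15 ± 0.11. In these genes too the days were far apart, at 11.8-fold and 8.86-fold. Camk2n2, an inhibitor of calcium/calmodulin-dependent kinase II, changed by 2.97 ± 0.19, and Cd74, the invariant chain of class II antigen presentation, by 2.63 ± 0.18.

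The other 10 of the 15 largest such rises came from several tissues. Tnnc2, the troponin C of fast skeletal muscle, rose by 2.56 ± 0.27. Crabp2, a carrier of retinoic acid, rose by 2.43 ± 0.13. Neuronal transport and synaptic genes were among them: Lin7b, a scaffold of cell polarity and synapses, rose by 2.37 ± 0.22 (1.76, 1.45 and 1.06 on other probes), Cplx1, a complexin that binds the SNARE complex of synaptic vesicles, by 2.23 ± 0.13, and Kif1a, the kinesin that carries synaptic vesicle precursors, by 2.20 ± 0.11 (1.44 on another probe). Taf7l, the germ cell paralogue of a TFIID subunit, rose by 2.19 ± 0.15, and Tex19.2, a germ cell gene, by 2.35 ± 0.14. Tgfb1, the ligand TGF-beta 1, rose by 2.21 ± 0.18. Nccrp1 rose by 2.28 ± 0.21 and Parm1 by 2.22 ± 0.20. In each of these 15 genes the lowest day 3 array lay above the highest day 0 array, as the rule for choosing them asks.

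Among the 15 largest falls of genes detected on every array of both days, Ccnd2, the D-type cyclin that drives CDK4 and CDK6, came first. Ccnd2 read 9.88, 9.63 and 9.73 at day 0 and 7.56, 6.84 and 7.31 at day 3, a change of -2.51 ± 0.17, or 5.68-fold lower (limma adjusted p of 8.37e-07), and its other probe changed by -3.06. Prdm14, a regulator of naive pluripotency and of primordial germ cells, read 8.86, 8.52 and 8.52 at day 0 and 6.59, 6.42 and 6.17 at day 3, a change of -2.24 ± 0.15. Slc6a15, a transporter of branched-chain amino acids and proline, read 8.96, 8.64 and 8.65 at day 0 and 6.63, 6.37 and 6.43 at day 3, a change of -2.28 ± 0.17, with -0.94 and -0.60 on its other probes. In all 3 genes the highest day 3 array lay well below the lowest day 0 array. Nupr1, a nuclear stress protein, read 11.63, 12.15 and 12.04 at day 0 and 9.82, 10.37 and 9.35 at day 3, a change of -2.10 ± 0.23. Chac1, a glutathione-degrading enzyme and like Nupr1 a known target of the transcription factor ATF4, read 12.07, 11.91 and 11.84 at day 0 and 10.13, 10.03 and 9.88 at day 3, a change of -1.93 ± 0.12. Neither gene had a day 3 array as high as any day 0 array. Hmox1, the haem oxygenase induced by oxidative stress, fell by 1.89 ± 0.23.

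The remaining falls of this kind took in ligands, enzymes and a Hedgehog effector. Accsl fell by 2.33 ± 0.12. Gli2, the main transcriptional activator of Hedgehog signalling, fell by 1.95 ± 0.10, with an uncalled -0.44 on its other probe, and Fgf17, an FGF ligand, fell by 1.93 ± 0.14. Dmtn, which encodes the actin-bundling protein dematin, fell by 1.97 ± 0.13, and Hsd17b1, an enzyme of oestradiol synthesis, fell by 1.74 ± 0.15. H2-M5, a non-classical class I histocompatibility gene, fell by 1.69 ± 0.16, Slc28a1, a concentrative nucleoside transporter, fell by 1.65 ± 0.20, Mia, a small secreted protein, fell by 1.65 ± 0.12, and Tnfsfm13 fell by 1.72 ± 0.13. Ubap1l had the largest fitted fall of all genes and lies outside the rule, since only 1 of its day 3 arrays detected it. It was chosen after its values were seen. Ubap1l read 9.70, 9.92 and 9.76 at day 0 and 6.20, 5.94 and 5.72 at day 3, a change of -3.84 ± 0.18, and its day 3 level lies near the limit of detection.

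**Figure D2:**
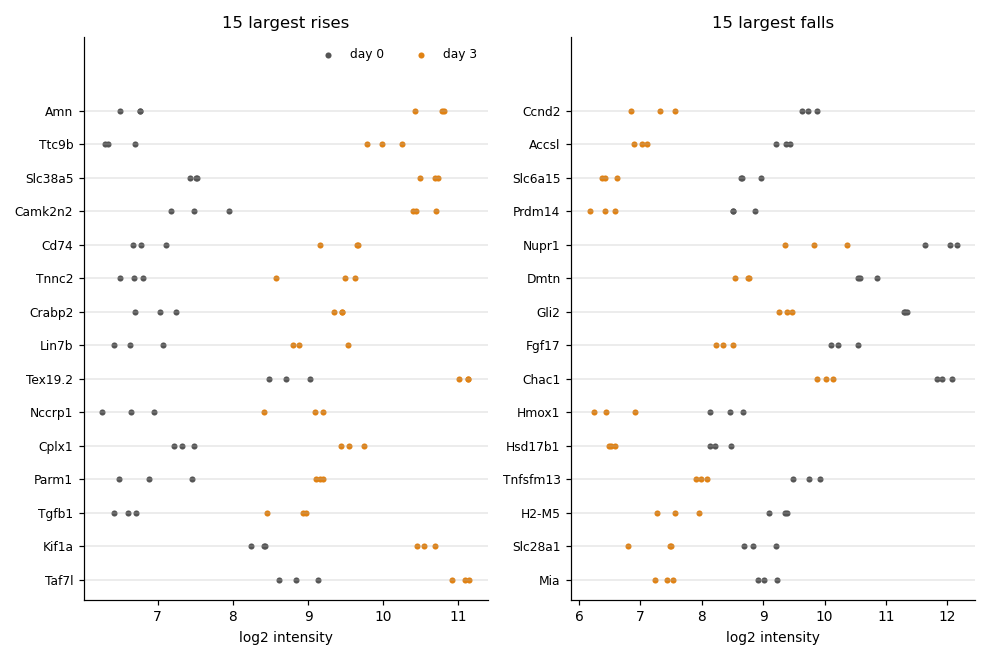
Log2 intensity (x axis) of the 15 largest rises and 15 largest falls among genes detected on all arrays of both days, 1 row per gene and 1 point per array, with day 0 in grey and day 3 in orange. Genes with clone names are left out. In every row the 3 points of one day lie apart from the 3 of the other, as in Amn, which went from at most 6.76 to at least 10.42.

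A further 192 genes were undetected on all day 0 arrays and detected on all day 3 arrays, and 183 of them passed the test. The reverse held for 42 genes, of which 41 passed, though a choice by detection on these same arrays largely fixes such counts. For these genes only a lower bound on the fold can be given, against the detection limit of each array, and it was at least 2-fold for 46 and 3 of them. Sstr2, a somatostatin receptor of neurons and endocrine cells, read 5.02, 5.01 and 5.20 at day 0 and 8.78, 8.74 and 8.90 at day 3 and was at least 6.38-fold higher. Sema7a, a membrane-bound semaphorin that guides axons, was at least 5.14-fold higher. Crygd, a gamma crystallin of the lens, was at least 4.68-fold higher, and Dmkn, the epidermal protein dermokine, at least 4.16-fold higher. Actc1, the actin of cardiac muscle, read 5.07, 4.96 and 5.08 at day 0 and 8.17, 8.11 and 7.99 at day 3 and was at least 3.89-fold higher. In Sstr2 and Actc1 the day 0 arrays were at background and the day 3 arrays stood clear of it. Akr1cl (at least 4.83-fold), Nrip3 (at least 4.02-fold), Klrg2 (at least 3.39-fold), Chst1, a sulfotransferase of glycans (at least 3.21-fold), and Fbln2, the matrix protein fibulin 2 (at least 3.25-fold), completed the 10 largest.

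Fewer genes went below detection. Vldlr, a receptor of lipoproteins and of reelin, read 7.56, 7.76 and 7.82 at day 0 and 5.64, 5.16 and 5.70 at day 3 and was at least 3.1-fold lower. Zfp619, a zinc finger gene, was at least 2.33-fold lower, and Mir205hg, a long non-coding RNA that hosts a microRNA, at least 2.07-fold lower. Lef1, a transcription factor of the Wnt pathway, was at least 1.84-fold lower, Prmt8, an arginine methyltransferase, at least 1.84-fold and Slc34a3, a renal phosphate transporter, at least 1.91-fold. Dgkh, a diacylglycerol kinase, was at least 1.71-fold lower, Car11, a carbonic anhydrase-related protein, at least 1.74-fold, Tspan32, a tetraspanin, at least 1.84-fold and Ly6g5c at least 1.98-fold.

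The 250 bases before the RefSeq transcription start of a pair of rising and a pair of falling genes are printed here, to show the sequence in which CpG and motifs were counted over all genes. They are the leading genes of each direction that have a single start in the table, in build GRCm38.p6. CpG dinucleotides are in capitals.
Amn, chr12:111270846-111271095, plus strand: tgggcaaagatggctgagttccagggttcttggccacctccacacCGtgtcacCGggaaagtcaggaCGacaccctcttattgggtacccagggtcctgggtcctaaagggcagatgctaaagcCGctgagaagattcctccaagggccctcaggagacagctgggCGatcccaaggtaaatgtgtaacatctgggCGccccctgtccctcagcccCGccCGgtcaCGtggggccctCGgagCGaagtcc
Ttc9b, chr7:27653674-27653923, plus strand: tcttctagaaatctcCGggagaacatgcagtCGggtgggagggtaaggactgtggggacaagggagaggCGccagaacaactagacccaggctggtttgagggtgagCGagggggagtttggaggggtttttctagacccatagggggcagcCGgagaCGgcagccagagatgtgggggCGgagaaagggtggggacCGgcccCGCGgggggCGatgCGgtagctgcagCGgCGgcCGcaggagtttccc
Nupr1, chr7:126625471-126625720, minus strand: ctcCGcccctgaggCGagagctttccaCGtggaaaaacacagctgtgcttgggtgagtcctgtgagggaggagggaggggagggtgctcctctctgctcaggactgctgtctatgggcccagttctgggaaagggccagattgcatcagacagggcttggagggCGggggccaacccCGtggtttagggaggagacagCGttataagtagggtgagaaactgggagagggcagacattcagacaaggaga
Gli2, chr1:119053620-119053869, minus strand: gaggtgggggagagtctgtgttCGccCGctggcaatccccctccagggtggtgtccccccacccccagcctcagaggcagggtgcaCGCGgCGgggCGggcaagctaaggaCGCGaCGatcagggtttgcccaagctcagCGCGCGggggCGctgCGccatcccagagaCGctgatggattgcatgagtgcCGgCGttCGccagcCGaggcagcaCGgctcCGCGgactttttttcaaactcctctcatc
These windows hold 11 CpG in Amn, 15 in Ttc9b, 6 in Nupr1 and 22 in Gli2. A window was found in the RefSeq table for 8066 of the genes tested. For a gene with several starts the highest CpG count over its windows was taken, and a motif counted if any window held it. The median number of CpG was 17 over these genes, 16 in genes that rose and 17 in genes that fell. It was 13.5 in genes that rose by at least 2-fold and 14 in those that fell by at least 2-fold. Of genes with 0 to 2 CpG, 26.4% rose, against 16.7% of genes with 30 or more. For falls the shares were 18.2% and 20.6%.

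Short motifs were searched for on both strands in the same 250 bases. The GC box, written GGGCGG or CCGCCC, was in 65% of all tested genes with a window, in 70.8% of those that rose and in 61.1% of those that fell. The letters CCGGAAG or CTTCCGG, bound by ETS factors, were in 15.8% of all, in 11.5% of rises and 16.8% of falls. Among changes of at least 2-fold that share was 7.2% of rises and 10.6% of falls. The AP-1 motif, TGACTCA or TGAGTCA, was in 3.91% of all and 6.27% of the rises of at least 2-fold, and the CCAAT box, CCAAT or ATTGG, in 40.9% and 38%. In all 32851 RefSeq promoter windows, each counted singly, the shares were 32.7% for the GC box, 6.91% for the ETS motif, 4.46% for AP-1 and 33.8% for CCAAT. The shares of genes and of single windows are not like measures, since a gene counts if any of its windows holds the motif. A match is no evidence that a factor binds there.

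The span of the gene was set beside the calls. In 4 equal classes of the span of the gene in RefSeq, with limits of 9.08, 21.5 and 49.2 kb, 26.7%, 20.2%, 19.8% and 18.9% rose and 14.1%, 16.6%, 20% and 20.4% fell. Among genes above the median level the rises were 24.9%, 18.6%, 16.5% and 15.3% and the falls 14%, 17.8%, 22.7% and 24.9%. Of 86 long non-coding RNA genes tested, 13 rose and 29 fell (33.7%), with a median change of -0.20. Chromosome 3 had 15% of its tested genes higher and 24% lower, and chromosome 15 had 26.9% higher and 14.9% lower. Such shares are descriptions, since the genes of a chromosome are not replicates.

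Gene lists for pathways, complexes and lineages were then read against the background of 21.4% rises and 17.8% falls. Brackets beside a count give its value where it moved by over 1.5 times when 1 of the 6 arrays was omitted or the replicate number was a block and, for counts of at least 8, under the other alternatives (for lists with such a count, scaling to the 75th percentile in both directions). With no scaling the counts over all genes were 723 rises and 516 falls, as given above. Counts below 8 can move with no scaling where no bracket says so. Among corepressor subunits 7 rises became 0, and among deacetylases 5 became 0. Brackets beside a change give the other detected probes of that gene where one differed in call or by over 0.5. Genes enter with detection on 3 of the 12 arrays, so a gene silent at day 0 can enter only through the later days. Of all genes, 533 were undetected on the 3 day 0 arrays and 278 of these rose, and the same numbers are given for the described lists with at least 3 of them. The list of REST-repressed neuronal genes held the highest share of rises, and those of tRNA synthetases, amino acid transporters and acetyltransferases the highest shares of falls. All such shares are of measured members only. On the array but too dim to enter were 24 of 54 members of the REST list. For muscle they were 21 of 47, for germline 20 of 48, for endoderm markers 21 of 41 and for 2-cell-stage genes 10 of 26.

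**Figure D3:**
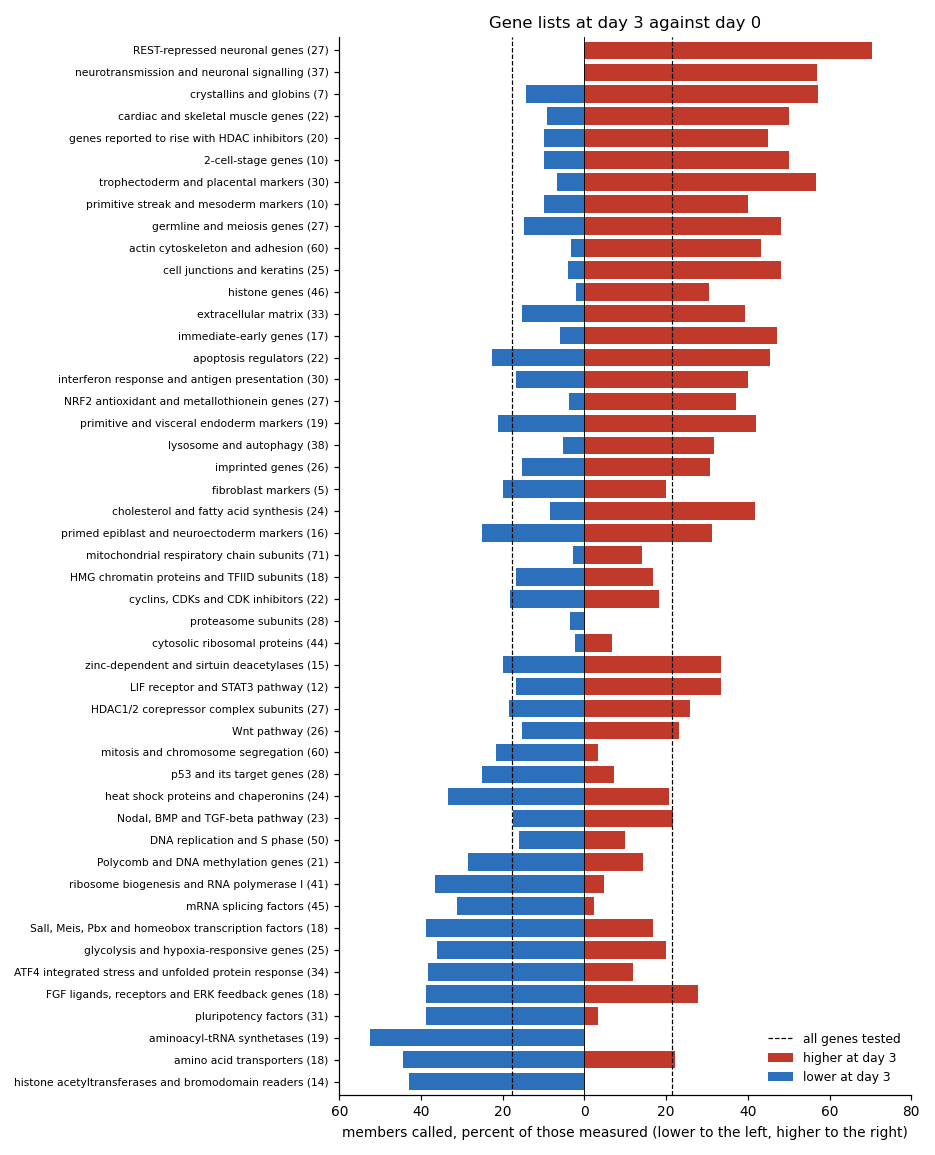
Share of the measured members of each of 48 gene lists that were called higher (bars to the right) or lower (bars to the left) at day 3, in percent, with the number measured in brackets and the lists in order of their median change. Dashed lines mark the shares over all genes tested, 21.4% and 17.8%. REST-repressed neuronal genes stand at the top, with 70.4% of members higher.

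Many genes of neurons were higher at day 3. REST is the repressor that silences neuronal genes outside the nervous system and that recruits HDAC1 and HDAC2 through CoREST and Sin3. Of 27 measured genes known to be repressed by REST, 19 rose (11 with no scaling), 0 fell (1 omitting array 2 of day 0) and 8 did not pass the test, with a median change of 0.82. Rundc3a, a gene of neuroendocrine cells, read 6.16, 6.46 and 6.33 at day 0 and 8.59, 8.41 and 8.41 at day 3, a change of 2.15 ± 0.13. Nefm, the medium neurofilament subunit, read 6.23, 5.36 and 5.83 at day 0 and 7.50, 7.51 and 7.51 at day 3, a change of 1.70 ± 0.26 (1.18 on another probe), and Syp, the synaptic vesicle protein synaptophysin, changed by 1.12 ± 0.16. In Rundc3a and Nefm every day 3 array lay above every day 0 array. Nefm lay below the detection limits of arrays 2 and 3 of day 0, which were 6.25 and 6.09. Stmn3, a microtubule regulator of the stathmin family, rose by 0.82 ± 0.16, whereas its paralogue Stmn2 had a change of -0.05 ± 0.12 that did not pass. Of 37 measured genes of neurotransmission and neuronal signalling, 21 rose (13 with detection on all 12 arrays asked for), 0 fell (1 omitting array 2 of day 0) and 16 did not pass the test. Of these genes 5 were undetected on all day 0 arrays, and 5 of the rises were theirs. None of the 4 neuroectoderm markers was detected beside these genes.

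The deacetylase family itself moved in both directions. Of 15 measured zinc-dependent and sirtuin deacetylases, 5 rose, 3 fell (5 omitting array 3 of day 0 and 6 omitting array 3 of day 3) and 7 did not pass the test. Among the sirtuins, which use NAD, Sirt7, a nucleolar enzyme, rose by 0.98 ± 0.14 and Sirt2, a cytoplasmic enzyme that acts on tubulin, by 0.97 ± 0.19. Sirt1, the nuclear sirtuin that acts on p53 and histones, fell by 1.02 ± 0.15, and Sirt5, a mitochondrial desuccinylase, fell by 1.01 ± 0.21. Hdac5, a class IIa enzyme, rose by 0.70 ± 0.11, with 0.62 and an uncalled 0.16 on its other probes. Of 27 measured subunits of the Sin3, NuRD, CoREST and MiDAC complexes, 7 rose, 5 fell and 15 did not pass the test. Suds3 rose by 0.92 ± 0.10, Ing2, a reader of methylated histone H3, by 0.91 ± 0.12 and Sap130 by 0.82 ± 0.14, all of the Sin3 complex. Rcor2, a CoREST scaffold, fell by 0.96 ± 0.21, and Gatad2b of NuRD was at least 1.37-fold lower and below detection at day 3. The shares of this list lie close to the background of all genes.

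No measured gene of the opposing acetyltransferases was called higher. Of 14 measured histone acetyltransferases and bromodomain readers, 0 rose, 6 fell (2 with no scaling) and 8 did not pass the test, and the median was -0.40. Ep300, the acetyltransferase p300 of active enhancers, read 9.95, 9.59 and 9.56 at day 0 and 8.70, 8.42 and 9.20 at day 3, a change of -0.93 ± 0.18. Kat5, the catalytic subunit of the Tip60 complex, read 8.57, 8.94 and 8.83 at day 0 and 7.92, 7.99 and 7.81 at day 3, a change of -0.87 ± 0.16, with an uncalled -0.45 on its other probe. The days did not overlap in either gene. Of 21 measured Polycomb and DNA methylation genes, 3 rose, 6 fell and 12 did not pass the test. Tet1, which oxidizes 5-methylcytosine, read 11.06, 10.81 and 11.13 at day 0 and 9.91, 9.52 and 9.60 at day 3, a change of -1.33 ± 0.14. Phc1, a polyhomeotic subunit of Polycomb repressive complex 1, fell by 1.18 ± 0.13, whereas its paralogue Phc2 rose by 1.25 ± 0.14. Phf19, an accessory subunit of Polycomb repressive complex 2, rose by 1.04 ± 0.18, and Dnmt3l, the cofactor of de novo DNA methyltransferases, by 0.83 ± 0.12.

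Of 46 measured histone genes, 14 rose (0 with no scaling, 5 omitting array 2 of day 3, 6 after scaling to the 75th percentile or fitting only the 6 arrays, 7 omitting array 1 of day 0, 9 with no filter and 23 with the replicate number as a block), 1 fell and 31 did not pass the test, with a median of 0.32. H2bc9 rose by 0.69 ± 0.19, H2bc4 by 0.68 ± 0.17 and H1f10, a linker histone, by 0.65 ± 0.12, while H2aj fell by 0.55 ± 0.14 (an uncalled -0.37 on another probe). The probes of such near-identical genes can share labelled RNA, so single histone genes are uncertain. Of 18 HMG chromatin proteins and TFIID subunits, 3 rose, 3 fell (5 omitting array 2 of day 0 or with the replicate number as a block) and 12 did not pass the test. Beside Taf7l, Hmgn3, a nucleosome-binding protein, rose by 1.95 ± 0.10 and Taf9b, a TFIID paralogue, by 1.27 ± 0.12 (0.57 on another probe). Gtf2a1, a subunit of TFIIA, fell by 1.12 ± 0.20, and Tbp, the TATA-binding protein, fell by 0.56 ± 0.11 (-0.60, an uncalled -0.57 and -0.69 on other probes).

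Zinc finger genes were the largest symbol family with few rises. Families were formed from the letters that open a symbol, and those with at least 20 tested genes were counted. Of 203 tested genes with a Zfp symbol, 77 fell (37.9%; 19 with no scaling) and 13 rose (6.4%; 1 with no scaling and 8 fitting only the 6 arrays), with a median change of -0.34. In 71 of the 77 the days did not overlap, a count that their call on these same arrays largely fixes, and 12 fell by at least 2-fold. Zfp428 read 11.12, 11.17 and 11.24 at day 0 and 9.79, 10.13 and 9.83 at day 3, a change of -1.26 ± 0.14, with an uncalled -0.43 on its other probe. Zfp91 read 9.42, 9.06 and 9.47 at day 0 and 8.47, 8.08 and 7.77 at day 3, a change of -1.21 ± 0.17. The days were apart in both genes. The largest rise of a gene detected on both days was of Zfp36, the mRNA decay factor tristetraprolin, at 0.94 ± 0.11, a protein of another zinc finger class. Of 23 Zbtb genes, which encode zinc finger proteins with a BTB domain, 2 rose and 7 fell (11 with the replicate number as a block), with a median of -0.36. By contrast, of 56 genes of Rab GTPases and related symbols, 19 rose (6 with no scaling) and 6 fell (3 omitting array 1 or 2 of day 0), among them Rab3d (1.54 ± 0.12) and Rab3a (1.48 ± 0.18), both of regulated secretion.

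**Figure D4:**
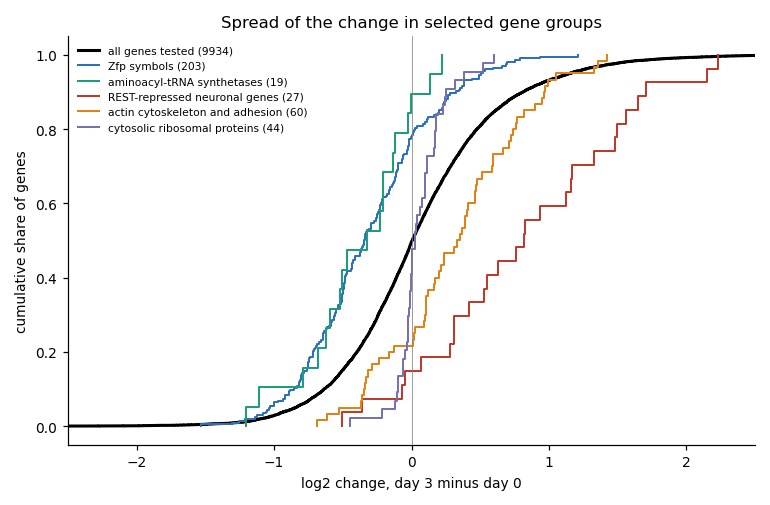
Cumulative share of genes (y axis) against the log2 change from day 0 to day 3 (x axis) for all 9934 genes tested and for 5 gene groups, with their numbers. The curves of Zfp genes (median -0.34) and tRNA synthetases (median -0.32) lie to the left of all genes, those of REST-repressed genes (median 0.82) and actin genes (median 0.34) to the right, and ribosomal proteins are the steepest.

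The pluripotency network was lower in part. Of 31 measured pluripotency factors, 1 rose (0 omitting array 1 of day 0 or array 2 of day 3 or after scaling to the 75th percentile), 12 fell and 18 did not pass the test, and the median change was -0.29. Nanog, a homeobox factor of naive cells, read 14.13, 13.95 and 13.96 at day 0 and 12.91, 13.37 and 13.55 at day 3, a change of -0.73 ± 0.18, with -1.26 on its other probe. Pou5f1, the core factor Oct4, read 13.78, 13.57 and 13.37 at day 0 and 13.10, 13.04 and 12.58 at day 3, a change of -0.66 ± 0.15. In both genes the days did not overlap, and both were still among the brighter genes at day 3. Zfp42, the naive marker Rex1, fell by 0.66 ± 0.13, Esrrb, an orphan nuclear receptor of naive cells, fell by 0.57 ± 0.14, Gdf3, a TGF-beta family ligand, fell by 1.60 ± 0.11 and Gbx2, a homeobox factor, fell by 0.97 ± 0.11. Sox2 fell by 0.80 ± 0.14 on its brighter probe, while its other probe changed by -0.12 and did not pass. The defining markers Utf1 (-0.36), Tdgf1 (-0.155) and Dppa5a (0.01) did not pass either.

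The signals that embryonic stem cells make and answer to changed unevenly. Of 18 measured FGF ligands, receptors and ERK feedback genes, 5 rose, 7 fell and 6 did not pass the test. Fgf4, the FGF through which embryonic stem cells signal to themselves, read 8.71, 8.15 and 8.17 at day 0 and 5.96, 5.64 and 6.53 at day 3, a change of -2.30 ± 0.21. Its value on array 2 of day 3 lay below that array's detection limit of 6.37. Etv5, an ETS factor induced by ERK, fell by 0.94 ± 0.14. On the other side Fgfr2, a receptor, rose by 1.17 ± 0.11, Dusp4, a nuclear phosphatase of ERK, by 1.70 ± 0.14 (1.81, 1.54 and 1.08 on other probes) and Egr1, an immediate-early factor, by 1.07 ± 0.12. Of 12 genes of the LIF and STAT3 pathway, 4 rose, 2 fell (1 omitting array 3 of day 0 or array 1 or 2 of day 3) and 6 did not pass the test. Socs3, the feedback inhibitor of this pathway, rose by 0.54 ± 0.11, and Junb by 0.89 ± 0.13.

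Of 23 measured genes of the Nodal, BMP and TGF-beta pathways, 5 rose, 4 fell (2 omitting array 2 of day 0 or array 2 of day 3) and 14 did not pass the test. Beside the ligand Tgfb1, which read 6.42, 6.71 and 6.60 at day 0 and 8.97, 8.94 and 8.45 at day 3, Id1 and Id3, inhibitors of helix-loop-helix factors and targets of BMP signalling, rose by 1.50 ± 0.10 and 1.56 ± 0.13. Lefty1, a Nodal antagonist, fell by 0.48 ± 0.13. Of 26 Wnt pathway genes, 6 rose, 4 fell and 16 did not pass the test. The ligands Wnt4 and Wnt7b rose by 1.39 ± 0.18 and 1.15 ± 0.15 (0.53 on another probe). Apc, of the complex that degrades beta-catenin, fell by 1.16 ± 0.25 and Fzd5, a receptor, fell by 0.87 ± 0.12 (-1.03 and -1.73 on other probes). In the Nodal and Wnt lists the shares of rises and falls lie near those of all genes.

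Lists of genes of other lineages held shares of rises above the background, and the markers of endoderm and of primed epiblast held shares of falls above it too. Of 30 measured trophectoderm and placental markers, 17 rose (8 with no scaling), 2 fell (1 omitting array 2 of day 0 or array 2 of day 3 and 4 after scaling to the 75th percentile) and 11 did not pass the test. Sct, the hormone secretin, rose by 1.51 ± 0.14, and Rhox6, a homeobox gene of placenta and germ cells, by 1.39 ± 0.17. Gata3, a defining trophectoderm factor, was at least 1.71-fold higher, since all day 0 arrays were below detection. Cdx2, the other defining marker detected on these arrays, was called lower, with a change of -0.52 (limma adjusted p of 0.0133). Tfap2a, another factor of that lineage, fell by 1.03 ± 0.16 (-0.52 on another probe). Of 19 markers of primitive and visceral endoderm, 8 rose (3 with no scaling and 5 fitting only the 6 arrays), 4 fell (2 omitting array 1 of day 0 or array 3 of day 3) and 7 did not pass the test. Beside Amn, which the visceral endoderm expresses, Ctsh, a lysosomal protease, rose by 2.17 ± 0.19 (1.35 on another probe) and Cited1, a transcriptional coregulator, by 0.87 ± 0.16, while Apom, an apolipoprotein, fell by 1.12 ± 0.22. Gata4, Sox17, Foxa2 and Afp, which define endoderm, were undetected on these 6 arrays. Of the other defining markers, Sox7 was called lower, at -0.80 (an uncalled -0.1 on another probe). Dab2 was called higher, at 0.85 (0.77 and an uncalled 0.29 on other probes). Gata6 was detected on 2 arrays of day 0 and on 0 of day 3.

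Of 22 measured cardiac and skeletal muscle genes, 11 rose, 2 fell (1 omitting array 1 or 2 of day 0 or array 3 of day 3 or after scaling to the 75th percentile) and 9 did not pass the test, with a median of 0.51. Adssl1, a muscle enzyme of purine metabolism, rose by 2.00 ± 0.13, Myl2, the ventricular myosin regulatory light chain, by 1.64 ± 0.14 and Acta1, the skeletal muscle actin, by 1.32 ± 0.14. Actn3, the alpha-actinin of fast fibres, fell by 0.90 ± 0.17 (-1.10 and -1.59 on other probes). Of the defining muscle markers, Myod1 and Myog were undetected on all arrays of both days. Nkx2-5 was detected on 0 arrays of day 0 and 1 of day 3. Myh6 was detected throughout, with a change of 0.43 that did not pass (limma adjusted p of 0.15). Of 27 germline and meiosis genes, 13 rose (8 with detection on all 12 arrays asked for or with no scaling), 4 fell and 10 did not pass the test. Tex101, a germ cell surface protein, was at least 2.69-fold higher and undetected at day 0. Asz1, of the piRNA pathway, fell by 1.49 ± 0.15 and Tex14, of intercellular bridges, fell by 0.84 ± 0.12. Of these genes 3 were undetected on all day 0 arrays, and 3 of the rises were theirs. Of 10 measured genes of the 2-cell-stage embryo, 5 rose, 1 fell and 4 did not pass the test. Zscan4c, a marker of the 2-cell-like state, rose by 1.38 ± 0.15 and Tcstv1 by 1.50 ± 0.14. Zscan4c and Tcstv1 belong to clusters of near-identical copies, so each value may be shared among copies.

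Of 16 measured markers of primed epiblast and neuroectoderm, 5 rose, 4 fell and 7 did not pass the test. Meis2, a homeobox factor of the developing nervous system, read 8.79, 8.42 and 8.68 at day 0 and 6.11, 5.22 and 5.79 at day 3, a change of -2.93 ± 0.20. Sall3, a spalt zinc finger factor, read 8.03, 7.76 and 8.09 at day 0 and 6.07, 5.34 and 6.39 at day 3, a change of -2.03 ± 0.21. Hes6, a helix-loop-helix factor of neural differentiation, rose by 0.81 ± 0.17 (an uncalled 0.56 and 0.84 on other probes). Meis2 and Sall3 also led the falls of the Sall, Meis, Pbx and homeobox factors, a list with 18 measured genes, of which 3 rose (1 omitting array 2 of day 0 or array 1 or 3 of day 3), 7 fell and 8 did not pass the test. Sall2 fell by 1.95 ± 0.18, and Msx1, a homeobox factor downstream of BMP, rose by 0.84 ± 0.20. The 3 genes Meis2, Sall3 and Sall2 had no array of day 3 as high as any of day 0. At day 3 Meis2 lay below the detection limit on arrays 2 and 3 (6.37 and 5.93), and Sall3 on array 2.

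Genes of the actin cytoskeleton and of junctions rose in many cases, and in far fewer with no scaling between arrays. Of 60 measured genes of the actin cytoskeleton and adhesion, 26 rose (4 with no scaling), 2 fell (1 omitting array 1 or 2 of day 0 or array 2 of day 3, 4 omitting array 3 of day 3 and 5 after scaling to the 75th percentile or with the replicate number as a block) and 32 did not pass the test, with a median of 0.34. Flnc, a filamin that cross-links actin, read 9.03, 9.51 and 9.68 at day 0 and 10.59, 11.03 and 10.67 at day 3, a change of 1.36 ± 0.17. S100a6, a calcium-binding protein, rose by 1.42 ± 0.14 and Myl9, a regulatory light chain of non-muscle and smooth muscle myosin, by 1.33 ± 0.21. Lmna, the A-type lamin that increases as cells differentiate, rose by 0.77 ± 0.16, with 0.94, 0.77, 0.56, 1.02 and an uncalled 0.24 on its other probes. Actb, the cytoplasmic beta-actin, had a change of 0.21 ± 0.13 (0.32, -0.14, -0.49 and -0.11 on other probes) that did not pass. Of 25 genes of cell junctions and keratins, 12 rose (6 with no scaling), 1 fell (2 omitting array 3 of day 3) and 12 did not pass the test. Ppl, periplakin of desmosomes, rose by 2.11 ± 0.21 and Cldn6, a tight junction claudin of embryonic epithelia, by 1.34 ± 0.10. Krtdap, a keratinocyte protein, was at least 2.98-fold higher and undetected at day 0. Gja1, the gap junction protein connexin 43, fell by 0.95 ± 0.12. Of 33 extracellular matrix genes, 13 rose (3 with no scaling), 5 fell (2 omitting array 1 or 3 of day 0 or array 2 of day 3 and 3 omitting array 2 of day 0 or array 1 of day 3) and 15 did not pass the test. Col5a1, a fibrillar collagen chain, rose by 1.24 ± 0.13, and Plod2, a collagen lysyl hydroxylase, fell by 0.68 ± 0.12. Thy1, the fibroblast marker named above, read 10.21, 10.34 and 10.04 at day 0 and 12.20, 12.09 and 11.55 at day 3, a change of 1.75 ± 0.16. The part of fibroblast-like cells in these rises was not tested, and the other 5 defining fibroblast markers were undetected on all 6 arrays.

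Among cell cycle genes, the list of cyclins and their kinases lay near the background in both directions, and those of mitosis and replication held few rises. Of 22 measured cyclins, CDKs and CDK inhibitors, 4 rose (2 omitting array 1 of day 0 or array 1 or 2 of day 3), 4 fell (2 omitting array 2 of day 3) and 14 did not pass the test. Beside Ccnd2, the S phase cyclin Ccne2 fell by 1.01 ± 0.16, and Rb1, the retinoblastoma protein, rose by 0.79 ± 0.19. Cdkn1a, the inhibitor p21 that HDAC inhibitors are known to induce, read 10.32, 10.23 and 10.13 at day 0 and 10.36, 10.60 and 10.40 at day 3, a change of 0.23 ± 0.11 (a called 0.40 and -0.18 on other probes) that did not pass (limma adjusted p of 0.116). Of 60 genes of mitosis and chromosome segregation, 2 rose (1 omitting array 1 of day 0 or array 1 or 2 of day 3 or after scaling to the 75th percentile and 4 with the replicate number as a block), 13 fell (1 with no scaling and 20 after scaling to the 75th percentile) and 45 did not pass the test. Zwilch and Dsn1, both of the kinetochore, fell, with changes of -0.84 ± 0.19 and -0.75 ± 0.19. Of 50 genes of DNA replication and S phase, 5 rose (3 after scaling to the 75th percentile), 8 fell (2 with no scaling, 5 fitting only the 6 arrays, 13 omitting array 3 of day 3 and 15 after scaling to the 75th percentile) and 37 did not pass the test. Rrm1, the large subunit of ribonucleotide reductase, fell by 0.82 ± 0.19, Pold2, of DNA polymerase delta, fell by 0.73 ± 0.19 and Mcm2, of the replicative helicase, fell by 0.42 ± 0.11. Chaf1b, of chromatin assembly factor 1, rose by 0.82 ± 0.11.

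Of 28 measured genes of p53 and its targets, 2 rose (1 omitting array 1 or 3 of day 0 or array 2 or 3 of day 3), 7 fell and 19 did not pass the test. Fas, a death receptor, rose by 1.28 ± 0.16 (0.52 on another probe), while Sesn2, a stress-induced inhibitor of mTORC1, fell by 1.03 ± 0.15. Mdm2, the ubiquitin ligase of p53, had a change of -0.05 ± 0.12 that did not pass. Apoptosis regulators changed in most measured cases. Of 22 of them, 10 rose (3 with no scaling), 5 fell (3 omitting array 2 of day 3) and 7 did not pass the test, with a median of 0.31. Bik, a pro-apoptotic BH3-only protein, read 7.05, 7.58 and 7.60 at day 0 and 8.60, 8.67 and 8.58 at day 3, a change of 1.21 ± 0.15, and Bmf, another such protein, rose by 1.06 ± 0.14. Casp6, an executioner caspase, rose by 1.13 ± 0.17. Bak1, a pore-forming effector of apoptosis, fell by 1.05 ± 0.25, and Birc2, an inhibitor of apoptosis, fell by 0.87 ± 0.15.

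Genes of amino acid supply and translation fell in many cases. ATF4 is the transcription factor of the integrated stress response, and it is known to drive amino acid transporters and tRNA synthetases. Of 34 measured genes of this response and the unfolded protein response, 4 rose, 13 fell (6 with no scaling) and 17 did not pass the test, with a median of -0.23. Trib3, a pseudokinase and ATF4 target, fell by 1.07 ± 0.12, with -1.57 and -1.49 on its other probes. Creld2 and Sdf2l1, proteins of the endoplasmic reticulum, rose by 0.83 ± 0.14 and 0.70 ± 0.16. Asns, asparagine synthetase, had a change of -0.14 ± 0.18 (a called -0.32 and -0.51 on other probes) that did not pass. Of 19 measured aminoacyl-tRNA synthetases, 0 rose, 10 fell (2 with no scaling) and 9 did not pass the test, with a median of -0.32. Eprs, for glutamate and proline, read 11.97, 11.32 and 11.30 at day 0 and 10.84, 9.98 and 10.44 at day 3, a change of -1.11 ± 0.23. Farsa, for phenylalanine, read 7.50, 7.42 and 6.98 at day 0 and 6.28, 6.81 and 6.43 at day 3, a change of -0.79 ± 0.17. Both had every day 3 array below every day 0 array, whereas Mars1, for methionine, had a change of -0.20 ± 0.12 that did not pass. Of 18 amino acid transporters, 4 rose, 8 fell (4 with no scaling) and 6 did not pass the test. Slc38a5, the third largest rise among genes detected on both days, thus stands beside falls of Slc38a1 (-1.24 ± 0.18), a related transporter, and Slc7a3 (-1.15 ± 0.13), which takes up cationic amino acids. Slc7a7, a subunit of a cationic and neutral amino acid exchanger, rose by 0.76 ± 0.18.

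Of 41 measured genes of ribosome biogenesis and RNA polymerase I, 2 rose (1 omitting array 1 or 2 of day 0 or array 1 or 3 of day 3 or after scaling to the 75th percentile and 4 omitting array 3 of day 0 or with the replicate number as a block), 15 fell (5 with no scaling) and 24 did not pass the test. Nop56, a core protein of box C/D small nucleolar ribonucleoproteins, read 12.63, 12.54 and 12.45 at day 0 and 11.89, 11.48 and 11.34 at day 3, a change of -0.97 ± 0.16. Wdr43, of the small subunit processome, fell by 1.07 ± 0.12 and Rrp1b fell by 1.06 ± 0.12, and Pes1, of large subunit maturation, rose by 0.60 ± 0.13. Myc, a known driver of these genes, was below detection on all day 3 arrays and read 6.48, 6.45 and 6.34 at day 0 and 5.29, 5.36 and 5.76 at day 3. At day 0 it lay little above the detection limits of those arrays, 6.06, 6.25 and 6.09. Its change of -0.95 was not called with no scaling (-0.83, limma adjusted p of 0.0644). A part of Myc in the falls of this list was not tested. Of 45 measured splicing factors, 1 rose (0 omitting array 1 or 3 of day 0 or array 2 of day 3 or after scaling to the 75th percentile and 3 omitting array 3 of day 3), 14 fell (7 with no scaling) and 30 did not pass the test. Srsf10, a splicing repressor, fell by 1.03 ± 0.20 (-1.06, -1.42, -1.05 and an uncalled -0.43 on other probes), Snrnp70, of the U1 particle, fell by 0.93 ± 0.21 and Srsf1, of the SR family, fell by 0.48 ± 0.12. Ribosomal protein genes were mostly uncalled. Of 44 measured cytosolic ribosomal proteins, 3 rose, 1 fell and 40 did not pass the test, both shares being below those of all genes. Rpl22 rose by 0.60 ± 0.10, and Rpl4 fell by 0.45 ± 0.12 (an uncalled -0.37 on another probe). Of 28 proteasome subunits, 0 rose (2 omitting array 2 of day 3 or with the replicate number as a block and 3 omitting array 3 of day 0), 1 fell and 27 did not pass the test. The member that fell was Psmd2, of the 19S regulator, at -1.10 ± 0.29.

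Of 27 measured antioxidant genes of the NRF2 pathway and metallothioneins, 10 rose (5 with no scaling), 1 fell (2 with the replicate number as a block) and 16 did not pass the test. The single fall was that of Hmox1, which read 8.46, 8.68 and 8.13 at day 0 and 6.92, 6.44 and 6.24 at day 3. Mt3, a metallothionein of the brain, rose by 1.75 ± 0.27, Gpx2, a glutathione peroxidase, by 1.70 ± 0.13 and Mgst1, a microsomal glutathione transferase, by 1.24 ± 0.14. Nqo1, the quinone reductase that is a standard NRF2 target, had a change of 0.25 ± 0.15 that did not pass. Of 24 heat shock proteins and chaperonins, 5 rose (3 after scaling to the 75th percentile), 8 fell (2 with no scaling and 5 omitting array 1 of day 0 or array 2 of day 3 or fitting only the 6 arrays) and 11 did not pass the test. Hspa1a, the stress-inducible Hsp70, was at least 2.37-fold higher and undetected at day 0. Hspb1, a small heat shock protein, rose by 0.71 ± 0.12, and Cct6a, a subunit of the cytosolic chaperonin, fell by 0.68 ± 0.15.

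Metabolic lists divided by pathway. Of 25 measured glycolytic and hypoxia-responsive genes, 5 rose, 9 fell (4 with no scaling) and 11 did not pass the test. Hk1, a hexokinase, rose by 1.26 ± 0.20, and Eno2, the neuronal enolase, by 1.04 ± 0.19, while the muscle enolase Eno3 fell by 0.90 ± 0.18. Slc2a1 and Slc2a3, the glucose transporters GLUT1 and GLUT3, fell, with changes of -0.94 ± 0.11 and -0.41 ± 0.12. Of 71 subunits of the respiratory chain, 10 rose (1 with no scaling, 2 after scaling to the 75th percentile and 6 fitting only the 6 arrays), 2 fell (1 omitting array 1 of day 0 or array 1 of day 3, 4 omitting array 3 of day 3 and 6 after scaling to the 75th percentile) and 59 did not pass the test. Cox4i2, a cytochrome oxidase isoform, rose by 0.81 ± 0.20, and Uqcrq, of complex III, fell by 0.42 ± 0.11. Of 24 genes of cholesterol and fatty acid synthesis, 10 rose (2 with no scaling), 2 fell (1 omitting array 1 or 3 of day 0 or array 3 of day 3) and 12 did not pass the test. Acss2, which makes acetyl-CoA from acetate, rose by 1.13 ± 0.13 and Fdps, a farnesyl diphosphate synthase, by 0.93 ± 0.15 (an uncalled 0.41 on another probe), while Scd2, a fatty acid desaturase, fell by 1.06 ± 0.29. Of 38 lysosome and autophagy genes, 12 rose (3 with no scaling), 2 fell (0 omitting array 3 of day 0 or array 2 of day 3 and 1 omitting array 1 of day 0 or array 1 of day 3) and 24 did not pass the test. Ctsl and Ctsb, cathepsins, rose by 1.29 ± 0.19 and 0.84 ± 0.15, and Sqstm1, the autophagy receptor p62, by 0.95 ± 0.21.

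Of 26 measured imprinted genes, 8 rose (2 with no scaling), 4 fell and 14 did not pass the test. Nnat, the neuronal membrane protein neuronatin, read 6.59, 7.11 and 6.68 at day 0 and 8.87, 9.06 and 8.45 at day 3, a change of 2.00 ± 0.19. The growth factor Igf2 rose by 1.13 ± 0.13 and its clearing receptor Igf2r by 0.71 ± 0.13, whereas Grb10, an adaptor that restrains growth, fell by 0.75 ± 0.11. Of 30 genes of the interferon response and antigen presentation, 12 rose (5 with no scaling and 7 with detection on all 12 arrays asked for), 5 fell (3 omitting array 2 of day 0 or array 3 of day 3) and 13 did not pass the test. Of these genes 7 were undetected on all day 0 arrays, and 5 of the rises were theirs. Psmb9, an immunoproteasome subunit, rose by 1.42 ± 0.13, and B2m, the light chain of class I molecules, by 0.91 ± 0.12. Irf9, which carries the interferon signal to DNA, fell by 1.14 ± 0.16, and Ifitm3, an antiviral membrane protein, fell by 0.87 ± 0.16. Of 17 immediate-early genes, 8 rose (1 with no scaling), 1 fell (2 omitting array 2 of day 3) and 8 did not pass the test. Fos and Ier3 rose by 1.04 ± 0.17 and 1.14 ± 0.22. Of 20 genes reported to rise with chemical HDAC inhibitors, 9 rose (3 with no scaling), 2 fell and 9 did not pass the test, with a median of 0.47. Crip2 rose by 1.14 ± 0.12 and Ckb, the brain creatine kinase, by 0.95 ± 0.13, and Txnip, an inhibitor of glucose uptake, fell by 0.47 ± 0.11 (an uncalled -0.39 on another probe).

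The levels on the days between were set beside these 2 days, with the same day 0 arrays behind every difference. Amn had a mean of 6.67 ± 0.16 at day 0, 7.29 ± 0.28 at day 1, 8.25 ± 0.08 at day 2 and 10.67 ± 0.22 at day 3 (SD, n = 3 arrays). Slc38a5 had means of 7.49 ± 0.05 at day 0, 7.77 ± 0.13 at day 1, 9.07 ± 0.09 at day 2 and 10.64 ± 0.13 at day 3. Camk2n2 stood at 7.54 ± 0.39 at day 0, 8.18 ± 0.25 at day 1, 9.11 ± 0.18 at day 2 and 10.51 ± 0.17 at day 3. These rises were spread over the days, with the highest mean at day 3. Among the falls, Hmox1 had means of 8.42 ± 0.27 at day 0, 6.27 ± 0.41 at day 1, 6.03 ± 0.27 at day 2 and 6.53 ± 0.35 at day 3. Ccnd2 stood at 9.75 ± 0.13 at day 0, 9.11 ± 0.16 at day 1, 8.57 ± 0.16 at day 2 and 7.24 ± 0.36 at day 3, and Prdm14 at 8.63 ± 0.20 at day 0, 8.23 ± 0.13 at day 1, 7.77 ± 0.17 at day 2 and 6.39 ± 0.21 at day 3. Hmox1 was thus already low at day 1, whereas Ccnd2 and Prdm14 had their lowest mean at day 3. Hsd17b1 stood at 8.28 ± 0.18 at day 0, 8.52 ± 0.23 at day 1, 8.37 ± 0.22 at day 2 and 6.53 ± 0.05 at day 3, and Chac1 at 11.94 ± 0.12 at day 0, 11.83 ± 0.10 at day 1, 11.15 ± 0.09 at day 2 and 10.01 ± 0.13 at day 3. Only at day 3 did the mean of Hsd17b1 lie below that of day 0.

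**Figure D5:**
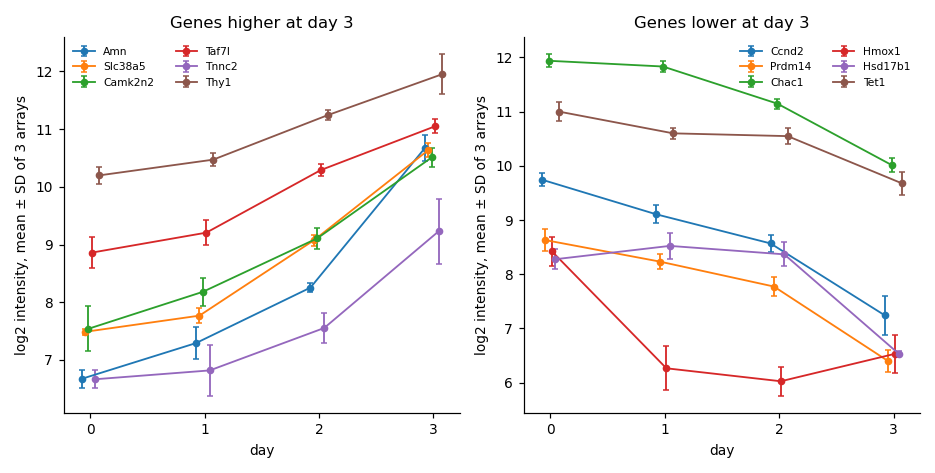
Mean log2 intensity with SD of 3 arrays (y axis) on days 0 to 3 (x axis) for 6 genes higher at day 3 and 6 genes lower. Amn is the steepest riser, and Hmox1 is low from day 1 on.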

How the data were processed

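RNA of 12 samples was hybridized to Illumina mouse bead arrays, and 6 of them, at days 0 and 3, are compared. The non-normalized table that the authors deposited holds a linear intensity per probe, with no background subtraction or scaling seen in its values, and beside it a deposited detection p-value in steps of 1 of 936 negative controls. A second deposited table of intensity values, with 1 distribution shared by all arrays, served as an alternative. GenomeStudio was used, per the submitters' processing notes, and its version and settings are not given in the sources used here.

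Intensities were background corrected with the detection p-values, quantile normalized and put on the log2 scale by neqc (limma 3.58.1, R 4.3.3, offset 16). A probe was kept if at least 3 of the 12 arrays had a detection p below 0.01 (17337 probes). GEO's platform annotation gave 1 symbol to 34885 of 45281 probes, several to 18 and none to 10378, and 34807 matched the RefSeq table by gene ID. The brightest kept probe stood for each of 9934 genes. Limma (lmFit, eBayes) fitted 1 mean per day to all 12 arrays, so the spread is shared by 4 days. Calls are two-sided, with Benjamini-Hochberg adjustment over all genes and a threshold of 0.05. The fit was tested on data simulated from these arrays, with noise drawn independently for each array. That test does not cover arrays that deviate together. The number of arrays limits the precision.

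Equally numbered arrays of days 0 and 3 deviated together from their day means (correlations of 0.259, 0.28 and 0.422), so the numbers were taken as pairs and the fit with the number as a block was an alternative. The members, the 48 lists and the tests were chosen with earlier results of these data known. Genes named are the 15 largest rises and falls among called genes detected on all arrays of both days without overlap, the 10 largest lower bounds each way, and per list the 3 largest called changes each way and some key members. Clone-type symbols, such as those with Rik, LOC or Gm and a number, were left out before the 15 and the 10 were taken. Some members are left out of the text, and some of the cell type markers are named too. Symbol families were formed after the values were seen. Promoter sequences are from RefSeq, build GRCm38.p6. No per-sample column was left unused (0 columns).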

Additional observations from a re-analysis of the deposited data

Results flagged for a closer look

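Probes that carry no single gene symbol enter none of the comparisons above. Of 2397 such probes that were detected, 360 were higher at day 3 (15%) and 471 lower (19.6%). Among the higher ones, 34 were undetected on all 3 day 0 arrays and detected on all 3 day 3 arrays, a signal in data the comparison does not use. These probes have no gene name here.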

How the results depend on the processing

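The alternatives changed the scaling, the background correction, the offset, the filter, the choice of probe, the arrays fitted, the variance model, the replicate block and, added after seeing the data, the intensity set as a block. With no scaling the rises were 723 and the falls 516, and the median change of all genes moved to -0.09; the cause was not tested. Under every other alternative run both counts stayed within 1.5 times of 2121 and 1768. Leaving out each of the 6 arrays in turn gave 1817 to 2178 rises and 1430 to 1844 falls. With the replicate number as a block they were 2443 and 2078, and with the intensity set as a block 2259 and 1888. The share of rises was 54.5% and ran from 45.9% with the 75th percentile to 59% with cyclic loess. Of 204 named genes with a call, 153 kept it under every alternative that gave a value, 51 lost it with no scaling, and 0 changed sign. Among uncalled genes, Actb went from 0.21 to -0.02 with no scaling and to -0.04 with the mean of its probes. With single arrays left out, Mdm2 ran from -0.13 to 0.03 and Stmn2 from -0.11 to 0.04. The lower level limit is set by background: a gene near it has an understated change.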
